A study of Mus musculus with 24 samples.

Results

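Autophagy is the route by which a cell wraps part of its own cytoplasm in a double membrane and delivers it to lysosomes for digestion. A kinase complex starts the process, a lipid kinase complex marks the membrane with phosphatidylinositol 3-phosphate (PI3P), and 2 ubiquitin-like conjugation systems attach small proteins of the LC3 and GABARAP families to the growing membrane, where cargo receptors bind them. In the liver the pathway is known for supplying nutrients during fasting, and the MiT/TFE transcription factors and the nuclear receptor PPARα are both known regulators of its genes.

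The 38 genes described here are a chosen set of autophagy and lysosome genes: 3 of the initiation kinase complex, 3 of the class III PI3 kinase complex, 4 of lipid transfer and PI3P binding, 8 of the conjugation machinery, 5 LC3 and GABARAP proteins, 4 cargo and mitophagy receptors, 3 MiT/TFE factors and 8 lysosomal proteins. They were found by the gene name printed for each non-control probe. All 38 were on the array, among 37074 named genes, and all 38 were among the 21331 genes bright enough to test.

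The data are 1-colour arrays of liver RNA from 24 male C57Bl/6J mice, 1 array a mouse and 6 mice a group, numbered within a group as in the labels. The series title speaks of mice with and without hepatocyte PPARα, here read as LWT and LKO; the labels used here give neither the Cre line nor the deleted part. Each genotype received by gavage at ZT 10 h either vehicle (0.5% carboxymethyl cellulose) or CL316243, a β3-adrenergic agonist, at 3 mg/kg in that vehicle, and livers were taken at ZT 16 h (ZT counts hours from lights on). All mice ate a standard diet freely. The comparisons ask what the agonist did in each genotype, whether its effect differed between genotypes, and how the genotypes differed under each treatment. A level below is the log2 of a probe's processed signal over its array's 75th percentile, so a difference of 1 is a doubling, and levels of different genes are not comparable. A difference was called when its adjusted p from limma, over all 21331 genes, was under 0.05.

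Ppara, the targeted gene, had levels of 5.46 to 5.93 in LWT livers under vehicle and 4.81 to 5.18 in LKO livers under vehicle. After CL316243 it ran from 5.70 to 6.42 in LWT and from 3.06 to 4.85 in LKO, a difference of -1.91 (SE 0.204, limma adjusted p = 3.598e-07). All 6 LKO livers lay below all 6 LWT livers under either treatment, although under vehicle the difference of -0.68 did not pass (limma adjusted p = 0.158). Whether this probe lies in the deleted part is not given in the sources used here. All 7 hepatocyte markers on the array were well above background in every group. Their summed linear level ran from 3745 to 4036 and from 4081 to 4991 in LWT and from 3641 to 4712 and from 3937 to 5159 in LKO (vehicle, then CL316243), so that only the LWT groups did not overlap. After CL316243, 2 of the 7, Fgb and Hnf4a, were called higher in each genotype, and Apoa1 was called lower in LKO. The sum of 5 erythroid markers ran from 190.1 to 245.4 and from 116.8 to 204.2 in LWT and from 150.3 to 363.9 and from 143.3 to 272.5 in LKO. The summed linear level of 7 neutrophil markers ran from 2.98 to 6.23 in LWT and from 3.05 to 4.31 in LKO under vehicle, and from 3.15 to 13.7 in LWT and from 5.71 to 44.8 in LKO after CL316243. Among them S100a8 and S100a9 were called higher in both genotypes and Elane in LKO, while Ly6g and Camp were called lower in LWT. The 44.8 was mouse 3 of that last group, which also correlated least with its own group over all genes (mean r 0.972, against 0.983 to 0.988 for its other 5 mice). It held the highest value of 13 of the 38 genes in that group and the lowest of 10. Mouse 1 of the LWT CL316243 group likewise held the highest value of 13 in its own group. The summed levels of 12 Kupffer cell and macrophage markers overlapped in all groups, with medians of 82.9 to 90.4. The sum of 8 stellate cell markers ran from 54.3 to 74.9 and from 64.9 to 85.9 in LWT and from 48.9 to 70.3 and from 66.4 to 84.6 in LKO (vehicle, then CL316243), and the sum of 6 cholangiocyte markers from 3.70 to 6.52 and from 4.26 to 14.1 in LWT and from 3.54 to 6.76 and from 7.13 to 14.2 in LKO. The part of these cells, and of mouse 3, in the results was not tested beyond the values without that mouse given below. In bulk liver, fewer cells of a type and less RNA per cell cannot be told apart.

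A known feature of many lysosomal genes is an E-box near the transcription start, the site that MiT/TFE factors bind. RefSeq promoter windows (build GRCm38.p6, 250 bases before to 50 after the start) were in hand for 32 of the 38 genes, 40 windows in all since some genes have several, and were searched on both strands. The E-box core CACGTG lay in 10 of the 40 windows (25.0%), against 7.15% of 32851 promoter windows of the same length. By gene, 10 of the 32 (31.2%) held it, against 8.09% of the 27025 genes with a window. The longer TCACGTGA, the inner part of the motif known from lysosomal genes, which contains the core, lay in 4 of the 40 windows (of Atg3, Ctsa, Ctsd and Mcoln1), against 0.974% of all windows. A PPAR response element, searched as the half-site AGGTCA repeated with any 1 base between, was in none of the 40 windows and in 0.0396% of all windows. Such a match describes letters, not binding.

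Of the 13 genes called the same way in both genotypes on the probes used (below), 10 had a window and 5 of those held the core: Ctsd and Ctsl, which rose, and Atg3, Atg5 and Atg7, which fell. A stretch that holds a core of each is printed 5′ to 3′ in the direction of the gene, with the core in capitals. The windows of Lamp1 and Mcoln1 follow, and were chosen after their matches were seen, Lamp1 because it had the most cores of the set, 4, and Mcoln1 because it held both a plain core and the longer motif.
Ctsd, chr7:142387828-142387947, minus strand, 120 to 1 bases before the start: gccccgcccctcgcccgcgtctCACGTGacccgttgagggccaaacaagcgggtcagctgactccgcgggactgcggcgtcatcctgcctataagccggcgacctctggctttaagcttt
Ctsl, chr13:64370651-64370770, minus strand, 250 to 131 bases before the start: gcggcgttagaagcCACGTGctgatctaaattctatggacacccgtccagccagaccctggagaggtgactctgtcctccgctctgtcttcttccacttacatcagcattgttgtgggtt
Atg3, chr16:45158709-45158828, plus strand, 120 to 1 bases before the start: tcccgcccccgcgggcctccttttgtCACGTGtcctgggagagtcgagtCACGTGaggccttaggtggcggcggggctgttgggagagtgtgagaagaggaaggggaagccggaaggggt
Atg5, chr10:44268219-44268338, plus strand, 120 to 1 bases before the start: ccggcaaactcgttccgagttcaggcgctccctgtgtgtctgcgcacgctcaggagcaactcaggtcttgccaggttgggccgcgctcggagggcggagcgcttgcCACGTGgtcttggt
Atg7, chr6:114670946-114671095, plus strand, 150 to 1 bases before the start: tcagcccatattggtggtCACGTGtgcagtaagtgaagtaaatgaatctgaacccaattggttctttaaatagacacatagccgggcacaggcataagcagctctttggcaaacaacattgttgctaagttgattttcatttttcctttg
Lamp1, chr8:13159041-13159160, plus strand, 120 to 1 bases before the start: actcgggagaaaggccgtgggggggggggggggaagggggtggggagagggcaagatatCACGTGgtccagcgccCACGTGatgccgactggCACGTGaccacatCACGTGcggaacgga
Mcoln1, chr8:3500399-3500518, plus strand, 120 to 1 bases before the start: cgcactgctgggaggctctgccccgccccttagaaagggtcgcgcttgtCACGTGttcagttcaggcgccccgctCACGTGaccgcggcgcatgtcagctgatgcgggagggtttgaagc

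In Lamp1 the cores started 61, 45, 28 and 15 bases before the start, and none lay within the longer motif. Ctsd had another core 245 bases upstream, outside the bases printed. In Atg3, Ctsd and Mcoln1 the longer motif began 1 base before the core at 71, 98 and 45 bases upstream. Genes with and without the core were found among those that rose, those that fell and those that were not called: Lamp1, with 4 cores, changed by 0.04 in LWT and 0.06 in LKO and was called in neither, and Sqstm1, whose window held no core, rose in both.

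**Figure D1:**
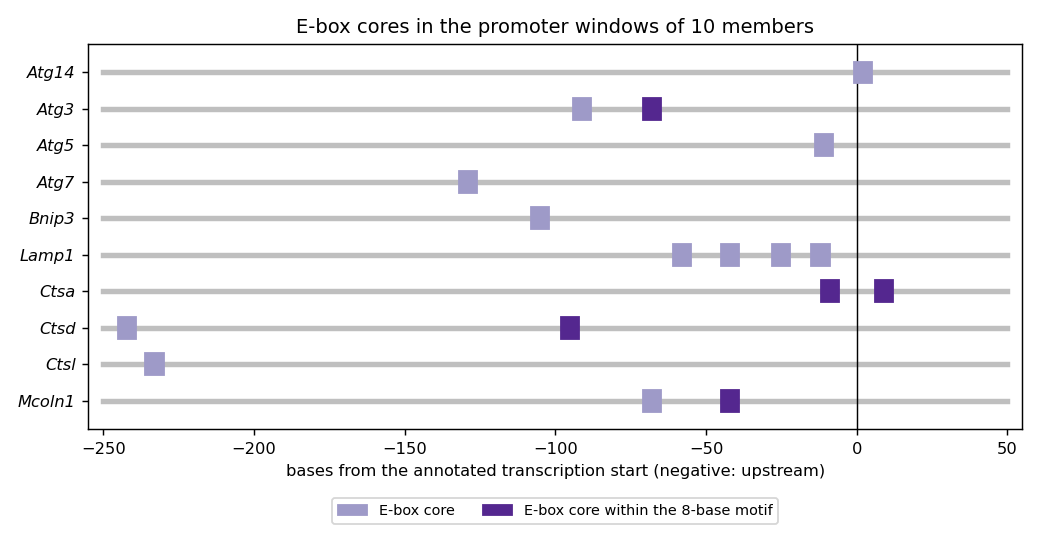
Positions of the E-box core in the promoter windows of the 10 members that hold it, in bases from the annotated start (x axis), 1 row a gene. Light boxes are cores alone and dark boxes are cores within the longer 8-base motif, as in Atg3, Ctsa, Ctsd and Mcoln1. Lamp1 has 4 cores within 61 bases of its start.

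After CL316243, 20 of the 38 genes were called in LWT livers, 10 higher and 10 lower. Of all genes tested, 38.3% were called in this comparison, 18.9% higher and 19.4% lower, and treated and vehicle livers did not overlap for 9 of the 38 and for 20.4% of all genes. In LKO livers 23 of the 38 were called, 15 higher and 8 lower, where 40.3% of all genes were called, 20.9% higher and 19.4% lower, and the groups did not overlap for 12 of the 38 and for 20.8% of all genes. The median change over the 38 was 0.02 in LWT and 0.06 in LKO, against 0.01 and 0.03 over all genes. Changes of the called genes ran from 0.19 to 0.81 and from -0.53 to -0.19 in LWT, and from 0.19 to 1.19 and from -0.70 to -0.25 in LKO. The set had no single direction in LWT, and its members are described by role.

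On the probes used, 9 genes were called higher in both genotypes, where 11.8% of all genes were. These were Atg2a, Atg12, Atg16l1, Map1lc3a, Map1lc3b, Gabarap, Sqstm1, Ctsd and Ctsl, of which Atg16l1 had another probe that passed lower in LWT. Called lower in both were 4, Atg3, Atg4a, Atg5 and Atg7, where 12.9% of all genes were. Gabarapl1 was called in opposite directions. On the probes used, Ulk2, Atg9a, Wipi1, Atg4b, Bnip3l and Mcoln1 were called for CL316243 in LWT alone. Called in LKO alone were Ulk1, Atg13, Atg14, Atg10, Nbr1, Bnip3, Tfeb, Tfe3 and Ctsa. Of these 15, Atg14, Tfe3 and Bnip3l also passed the test of the difference between genotypes. The share of all genes called in LWT alone or in LKO alone is not given here. Whether such calls are particular to these genes was therefore not tested. Becn1, Uvrag, Wipi2, Gabarapl2, Mitf, Lamp1, Lamp2, Lipa and Ctsb were called in no comparison.

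Probe positions are those the array files give on build mm9, within the transcript of the gene; whether a probe lies in coding sequence or a UTR was not looked up. For the genes with the largest changes or a difference between genotypes they were Sqstm1 at chr11:50013670-50013729, Ctsl at chr13:64465287-64465346, Map1lc3b at chr8:124120787-124120846, Ulk1 at chr5:111213514-111213573, Atg14 at chr14:48160711-48160770, Tfe3 at chrX:7352259-7352318, Gabarapl1 at chr6:129492254-129492313, Bnip3l at chr14:67606210-67606269 and Atg10 at chr13:91076938-91162176, the last spanning at least 1 intron.

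**Figure D2:**
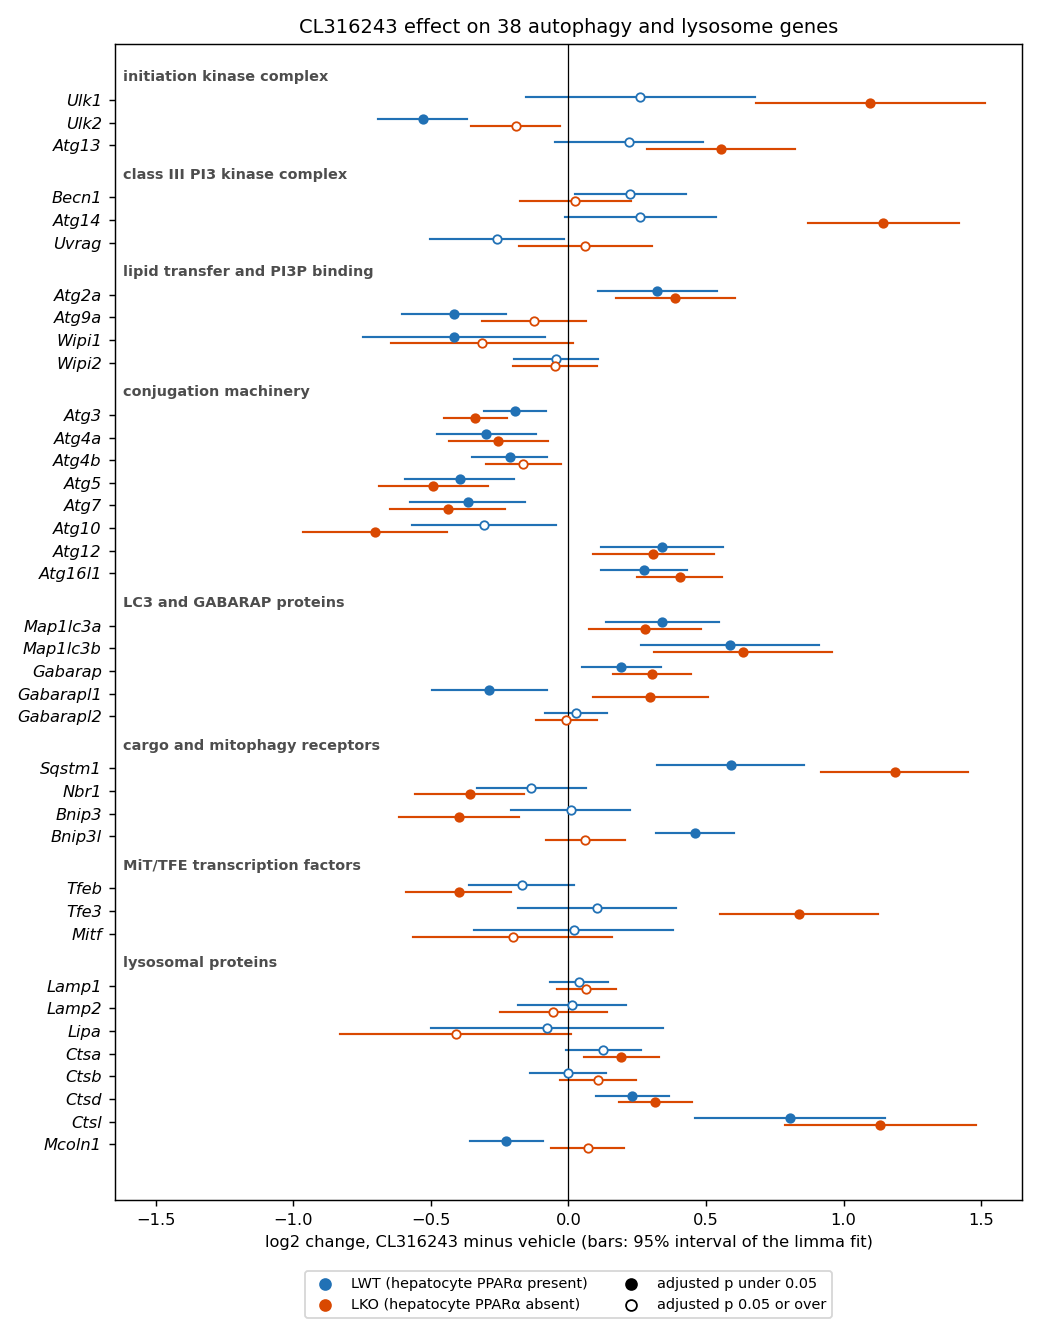
Change after CL316243 in LWT (blue) and LKO (orange) livers for the 38 genes, grouped by role; the x axis is the log2 difference of group means and bars are 95% intervals of the limma fit, 6 mice a group. Filled points have an adjusted p under 0.05. Sqstm1 (0.59 and 1.19) and Ctsl (0.81 and 1.13) lie far to the right in both genotypes, and most conjugation genes lie to the left.

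The initiation kinase genes were Ulk1 and Ulk2, the kinases that start autophagy, and Atg13, which anchors them in their complex. Ulk1 levels in LWT ran from 4.15 to 5.05 (median 4.83) under vehicle and from 4.58 to 5.44 (median 5.03) after CL316243, and in LKO from 3.66 to 4.90 (median 4.63) and from 5.28 to 5.67 (median 5.55). The 2 LKO groups did not overlap, while the LWT groups did. Ulk1 rose by 1.096 in LKO (SE 0.201, 2.14-fold, limma adjusted p = 0.000173), and its change in LWT was 0.26 (limma adjusted p = 0.331). The difference between the 2 effects, 0.84 (SE 0.284), did not pass (limma adjusted p = 0.0954). A second Ulk1 probe changed by 0.62 in LKO and did not pass over all kept probes (limma adjusted p = 0.0906).

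Ulk2 fell in LWT. Its levels there were 1.74 to 1.88 (median 1.84) under vehicle and 1.17 to 1.43 (median 1.30) after CL316243, with no overlap, a fall of 0.53 on the log2 scale (SE 0.078, limma adjusted p = 1.581e-05). In LKO the change of -0.19 was just outside the threshold (limma adjusted p = 0.0545). Atg13 rose in LKO by 0.55 (SE 0.129, limma adjusted p = 0.00161), with every treated LKO liver above every vehicle one, and changed by 0.22 in LWT, where it was not called. Its second kept probe rose by 1.40 in LKO (limma adjusted p = 1.23e-05 over all kept probes) and changed by 0.27 in LWT.

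Of the class III PI3 kinase complex genes, Atg14, the subunit that directs the kinase to autophagy, stood apart from Becn1, its scaffold, and Uvrag, the subunit of the endosomal form of the complex. Atg14 ran in LWT from 0.76 to 1.38 (median 1.02) under vehicle and from 1.08 to 1.71 (median 1.35) after CL316243, and in LKO from 0.73 to 1.18 (median 0.86) and from 1.67 to 2.42 (median 2.05). Every treated LKO liver was above every vehicle liver of either genotype, and the LWT groups overlapped. The rise in LKO was 1.14 (SE 0.133, 2.21-fold, limma adjusted p = 1.153e-06), the change in LWT was 0.26 (limma adjusted p = 0.128), and the difference between them was 0.88 (SE 0.188, limma adjusted p = 0.00569). Becn1 changed by 0.22 and 0.02 and Uvrag by -0.26 and 0.06 in LWT and LKO, none of them called. Of the 2 other kept Uvrag probes, 1 fell by 0.60 in LWT (limma adjusted p = 0.000292 over all kept probes) and by 0.35 in LKO (limma adjusted p = 0.0183), and the other passed in neither.

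Among the genes of lipid transfer and PI3P binding, Atg2a, the channel that moves lipid into the growing membrane, rose in both genotypes, by 0.32 in LWT and 0.39 in LKO. The LWT call was lost without vehicle mouse 2 or CL316243 mouse 1 (limma adjusted p up to 0.0540). Atg9a, the scramblase of the vesicles that seed the membrane, fell by 0.42 in LWT (limma adjusted p = 0.000943) and changed by -0.13 in LKO. Wipi1, a PI3P-binding protein, was called lower in LWT by 0.42 (limma adjusted p = 0.0426), but 7 of 12 fits that left out 1 mouse lost the call: those without vehicle mouse 1, 4 or 5 or CL316243 mouse 1, 2, 4 or 5 (limma adjusted p up to 0.0999). Another kept Wipi1 probe passed in both genotypes, at -0.55 in LWT (limma adjusted p = 0.0118 over all kept probes) and -0.68 in LKO (limma adjusted p = 0.00225). The remaining kept Wipi1 probe passed in neither. Wipi2, its relative that recruits the conjugation machinery, changed by -0.05 in both on the probe used. Its 2 other kept probes passed in LKO in opposite directions, at 0.56 (limma adjusted p = 0.00403 over all kept probes) and -0.26 (limma adjusted p = 0.00278), so no direction is given for the gene.

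On the probe used for each, 2 of the 8 conjugation genes were called higher and 5 lower in each genotype. The E1-like enzyme Atg7, the E2-like enzymes Atg3 and Atg10, the proteases Atg4a and Atg4b that prime LC3, and Atg5, which is joined to Atg12, all had lower mean levels after CL316243 in both genotypes, and 5 of these 6 were called in each genotype: not Atg10 in LWT and not Atg4b in LKO. The ubiquitin-like Atg12 and its partner Atg16l1, which places the complex on the membrane, were called higher in both genotypes on the probes used. The probes of Atg16l1 disagreed in LWT (below).

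Atg10 had the largest fall of the group. In LKO it ran from -1.67 to -0.85 (median -1.01) under vehicle and from -1.91 to -1.40 (median -1.88) after CL316243, and in LWT from -1.36 to -1.04 (median -1.25) and from -1.82 to -1.25 (median -1.49). In both genotypes the groups overlapped. The fall in LKO was -0.70 (SE 0.126, limma adjusted p = 0.000137), and the change in LWT was -0.31 (limma adjusted p = 0.0577).

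Atg3 in LKO ran from 4.48 to 4.56 under vehicle and from 4.06 to 4.28 after CL316243, with no overlap, a fall of 0.34 on the log2 scale (SE 0.055, limma adjusted p = 4.972e-05), and fell by 0.19 in LWT. Atg7 fell by 0.37 in LWT and 0.44 in LKO, and Atg5 by 0.40 and 0.49. Atg4a fell by 0.30 and 0.25, the latter call being lost without LKO CL316243 mouse 3 or LKO vehicle mouse 5 (limma adjusted p up to 0.0654).

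Atg12 rose by 0.34 in LWT and 0.31 in LKO, where the call was lost without CL316243 mouse 3 or vehicle mouse 2 or 4 (limma adjusted p up to 0.0714). Atg16l1 was higher by 0.27 and 0.40 on the probe used. Its 2 other kept probes changed by -0.08 and -0.35 in LWT and by 0.23 and -0.02 in LKO. The -0.35 passed (limma adjusted p = 0.00284 over all kept probes), as did the 0.23 (limma adjusted p = 0.00892). The probes of Atg16l1 thus disagreed in LWT, where their mean gave -0.051, so no direction is given for the gene there. The 4 kept probes of Atg4b disagreed as well, with changes from -0.21 to 0.52 in LWT, where their mean gave 0.037. No conjugation gene passed the test of the difference between genotypes.

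The LC3 and GABARAP proteins are the small ubiquitin-like tags of the autophagosome membrane. Map1lc3b, the LC3 form most used as an autophagosome marker, ran in LWT from 4.83 to 5.13 (median 4.90) under vehicle and from 5.04 to 6.00 (median 5.55) after CL316243, and in LKO from 4.78 to 4.996 (median 4.97) and from 5.26 to 6.35 (median 5.44). Treated livers were all above vehicle livers in LKO, and the LWT groups overlapped slightly. The rises were 0.59 (SE 0.156, limma adjusted p = 0.00462) and 0.63 (SE 0.156, 1.55-fold, limma adjusted p = 0.00253), and without LKO CL316243 mouse 3, the 6.35, the second was 0.48 (limma adjusted p = 0.00423).

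Map1lc3a, a second LC3 form, ran in LWT from 1.26 to 1.63 (median 1.54) under vehicle and from 1.72 to 1.95 (median 1.81) after CL316243, and in LKO from 1.41 to 1.88 (median 1.67) and from 1.53 to 2.09 (median 2.01). The LWT groups did not overlap and the LKO groups did. It rose by 0.34 in LWT (limma adjusted p = 0.00885) and 0.28 in LKO (limma adjusted p = 0.0282), and the LKO call was lost in 6 of 12 fits that left out 1 mouse, those without vehicle mouse 1 or 2 or CL316243 mouse 2, 3, 5 or 6 (limma adjusted p up to 0.0742).

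Gabarap ran in LWT from 5.45 to 5.57 (median 5.53) under vehicle and from 5.53 to 5.85 (median 5.75) after CL316243, and in LKO from 5.42 to 5.68 (median 5.52) and from 5.67 to 6.05 (median 5.82), so that treated and vehicle livers overlapped at their edges in both genotypes. The rises were small, 0.19 in LWT (limma adjusted p = 0.0305) and 0.30 in LKO (limma adjusted p = 0.00127). The LWT call was lost in 5 of 12 fits that left out 1 mouse, vehicle 1 or 4 or CL316243 1, 2 or 3 (limma adjusted p up to 0.0783).

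Gabarapl1, a close relative of Gabarap, was the gene called in opposite directions. Its levels in LWT ran from 6.77 to 7.03 (median 6.92) under vehicle and from 6.29 to 6.87 (median 6.66) after CL316243, and in LKO from 6.79 to 7.20 (median 6.96) and from 7.09 to 7.42 (median 7.30). Within each genotype the groups overlapped, but after CL316243 all 6 LKO livers were above all 6 LWT livers. It fell by 0.29 in LWT (limma adjusted p = 0.0270) and rose by 0.30 in LKO (limma adjusted p = 0.0212), and the difference between the effects was 0.58 (SE 0.142, limma adjusted p = 0.0154). The opposite directions rest on the probe used: the second Gabarapl1 probe changed by -0.22 in LWT and 0.02 in LKO, neither passing, with a difference of 0.24 (limma adjusted p = 0.491 over all kept probes). The LWT call was lost without vehicle mouse 1 or 4 or CL316243 mouse 2, 3 or 6 (limma adjusted p up to 0.0809), and the LKO call without vehicle mouse 3 (limma adjusted p = 0.0560), with quantile normalization, on the deposited log2 values and on the mean of the kept probes (limma adjusted p up to 0.222).

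Gabarapl2, the last of the family here, had medians of 4.43 and 4.46 in LWT (range 4.35 to 4.54 over both groups) and of 4.49 and 4.44 in LKO (range 4.28 to 4.601). All 4 groups overlapped. Its changes were 0.03 (95% interval -0.08 to 0.14) and -0.01 (95% interval -0.12 to 0.10), neither called.

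**Figure D3:**
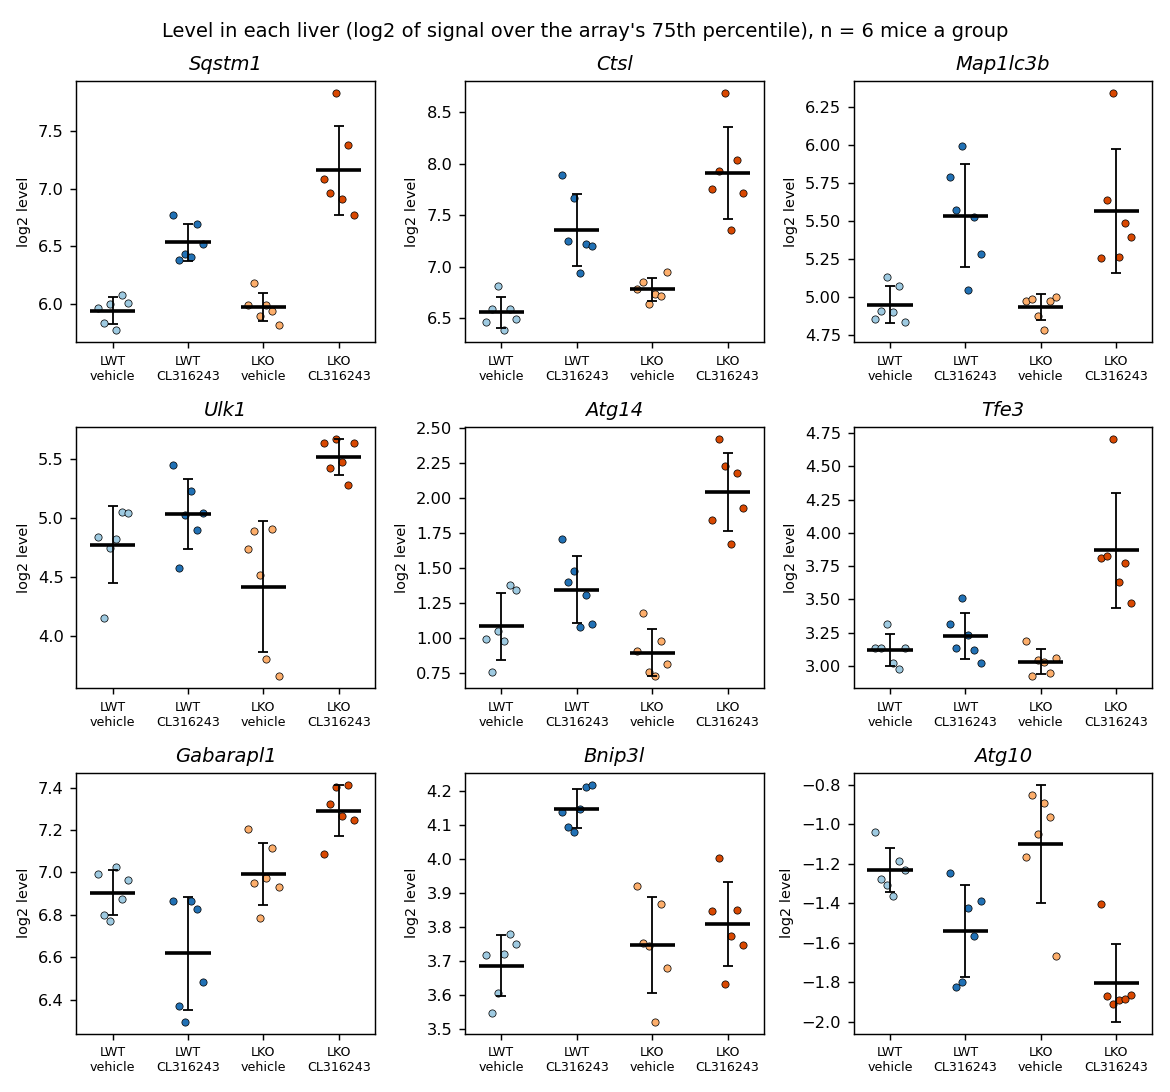
Levels of 9 members in each of the 24 livers (points, log2 scale, separate y axis a gene) with the group mean and SD (black lines), 6 mice a group. Sqstm1 and Ctsl are high in both CL316243 groups, Atg14 and Tfe3 are high in LKO after CL316243, and Bnip3l is high in LWT after CL316243.

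Cargo and mitophagy receptors bring selected material to the membrane. Sqstm1 (p62), which binds ubiquitinated cargo, ran in LWT from 5.77 to 6.08 (median 5.98) under vehicle and from 6.38 to 6.77 (median 6.48) after CL316243, and in LKO from 5.82 to 6.18 (median 5.97) and from 6.77 to 7.83 (median 7.02). Vehicle livers of both genotypes were lowest, treated LWT livers lay above them, and treated LKO livers were highest, although the top treated LWT liver and the bottom treated LKO liver were both at 6.77. The rise was 0.59 in LWT (SE 0.129, 1.51-fold, limma adjusted p = 0.000925) and 1.19 in LKO (SE 0.129, 2.27-fold, limma adjusted p = 5.926e-07). The difference between them, 0.59 (SE 0.182), was just outside the threshold (limma adjusted p = 0.0598); without LKO CL316243 mouse 3, the 7.83, it was 0.46 and passed (limma adjusted p = 0.0411). All 3 kept probes of Sqstm1 were higher after CL316243 in both genotypes, by 0.40 to 0.63 in LWT and 0.98 to 1.19 in LKO.

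Nbr1, a receptor related to Sqstm1, was called lower in LKO by 0.36 on the probe used, but its 2 other kept probes changed by 0.39 and 0.97 there, so no direction is given for the gene.

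Bnip3l (NIX) and Bnip3 are outer mitochondrial membrane proteins that tether mitochondria to LC3. In LWT, Bnip3l ran from 3.55 to 3.78 (median 3.72) under vehicle and from 4.08 to 4.22 (median 4.14) after CL316243, and in LKO from 3.52 to 3.92 (median 3.75) and from 3.63 to 4.00 (median 3.81). Treated LWT livers were above all other livers. The rise in LWT was 0.46 (SE 0.069, 1.38-fold, limma adjusted p = 1.671e-05), the change in LKO was 0.06 (95% interval -0.08 to 0.20), and the difference between the effects was -0.40 (SE 0.097, limma adjusted p = 0.0154). A second Bnip3l probe gave 0.43, -0.05 and -0.47.

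Bnip3 ran in LWT from 6.00 to 6.45 (median 6.19) under vehicle and from 5.96 to 6.46 (median 6.21) after CL316243, and in LKO from 6.12 to 6.63 (median 6.29) and from 5.69 to 6.19 (median 5.87). The LWT groups covered the same range, and the LKO groups overlapped by a little. Bnip3 fell by 0.40 in LKO (SE 0.105, limma adjusted p = 0.00420) and changed by 0.01 in LWT, and the difference of -0.41 did not pass (limma adjusted p = 0.124).

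MiT/TFE factors drive transcription of lysosomal genes. Tfe3 ran in LWT from 2.98 to 3.31 (median 3.13) under vehicle and from 3.02 to 3.51 (median 3.19) after CL316243, and in LKO from 2.92 to 3.18 (median 3.04) and from 3.47 to 4.71 (median 3.79). Treated LKO livers were above all vehicle livers, and the treated groups of the 2 genotypes overlapped. It rose by 0.84 in LKO (SE 0.138, 1.79-fold, limma adjusted p = 5.985e-05), changed by 0.10 in LWT (limma adjusted p = 0.601), and the effects differed by 0.74 (SE 0.196, limma adjusted p = 0.0276). Without LKO CL316243 mouse 3, the 4.71, the rise was 0.67 (limma adjusted p = 4.89e-06) and the difference 0.57 (limma adjusted p = 0.00417).

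Tfeb ran in LWT from -0.999 to -0.52 (median -0.77) under vehicle and from -1.13 to -0.69 (median -0.90) after CL316243, and in LKO from -0.79 to -0.39 (median -0.64) and from -1.22 to -0.95 (median -0.97). The LKO groups did not overlap. It fell by 0.40 in LKO (SE 0.092, limma adjusted p = 0.00145) and changed by -0.17 in LWT (limma adjusted p = 0.152). The 4 kept probes of Tfeb all had lower means after CL316243 in LKO, by -0.40 to -0.07. Those at -0.14 and -0.07 did not pass (limma adjusted p = 0.483 and 0.63 over all kept probes). Mitf had medians of 0.03 and 0.14 in LWT and of 0.04 and -0.01 in LKO, with all 4 groups overlapping between -0.70 and 0.69, and was not called (changes 0.02 and -0.20).

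**Figure D4:**
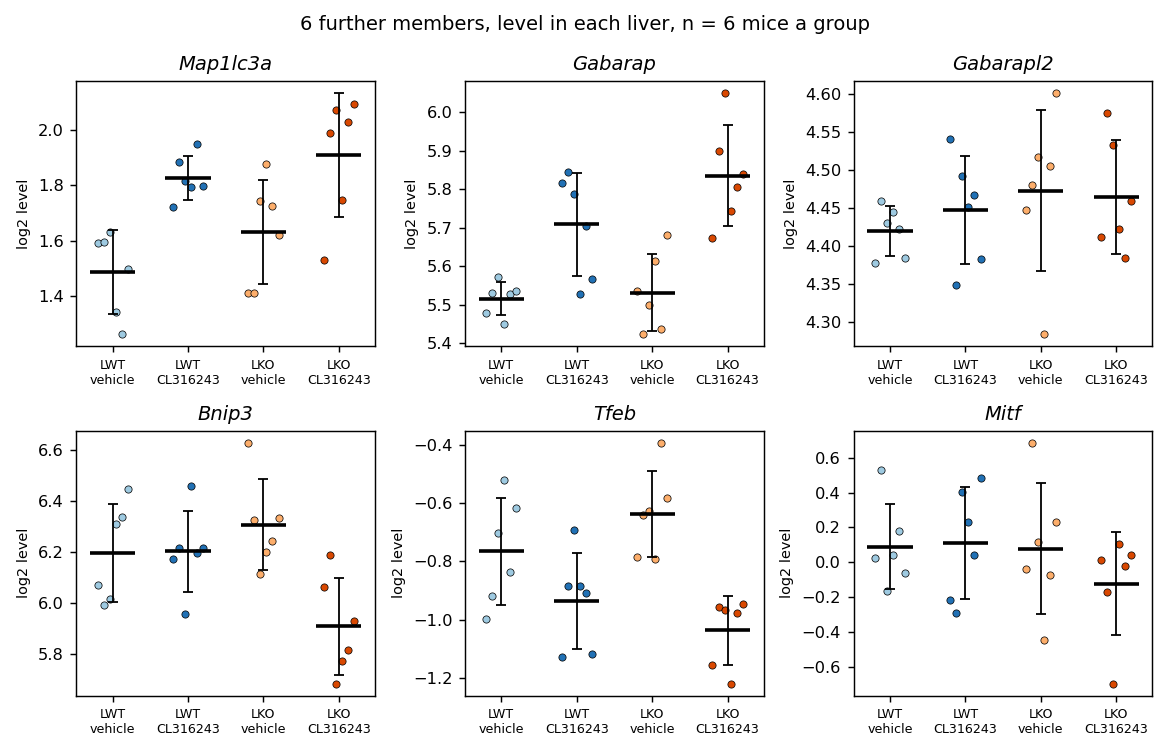
Levels of Map1lc3a, Gabarap, Gabarapl2, Bnip3, Tfeb and Mitf in each of the 24 livers (points, log2 scale, separate y axis a gene) with the group mean and SD (black lines), 6 mice a group. Gabarapl2 and Mitf overlap in all 4 groups, and Bnip3 and Tfeb are lower in LKO after CL316243.

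Of the 8 lysosomal proteins, 2 rose and 1 fell in LWT and 3 rose in LKO. Ctsl, a cysteine protease of the lysosome, ran in LWT from 6.38 to 6.81 (median 6.54) under vehicle and from 6.94 to 7.89 (median 7.24) after CL316243, and in LKO from 6.64 to 6.95 (median 6.76) and from 7.36 to 8.69 (median 7.84). In neither genotype did treated and vehicle livers overlap. The rise was 0.81 in LWT (SE 0.167, 1.75-fold, limma adjusted p = 0.000569) and 1.13 in LKO (SE 0.167, 2.19-fold, limma adjusted p = 1.794e-05), 0.98 without CL316243 mouse 3, and the effects differed by 0.33, which was not called (limma adjusted p = 0.511). A second probe rose by 1.09 and 1.90.

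Ctsd, the main aspartic protease, rose by 0.23 in LWT (limma adjusted p = 0.00608) and 0.32 in LKO (limma adjusted p = 0.000457). Ctsa, a serine carboxypeptidase that also protects other lysosomal enzymes, rose in LKO by 0.19 (limma adjusted p = 0.0229; 0.0546 without vehicle mouse 3), and by 0.98 on its second kept probe. The protease Ctsb, the membrane proteins Lamp1 and Lamp2 and the acid lipase Lipa were not called, with changes of -0.08 to 0.04 in LWT and -0.41 to 0.11 in LKO. Mcoln1, the calcium channel of the lysosomal membrane, fell by 0.23 in LWT (limma adjusted p = 0.00742) and changed by 0.07 in LKO. Its second kept probe changed by -0.51 and -0.71, neither passing. That probe was well above background in 6 and 2 of 6 LWT livers and 5 and 3 of 6 LKO livers (vehicle, then CL316243).

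The direct test of whether the CL316243 effect differed between genotypes called 4 of the 38 genes, where 5.41% of all genes were called, 2.17% higher and 3.24% lower in LKO. The effect was higher in LKO for Atg14, Tfe3 and Gabarapl1 and lower for Bnip3l. Without LKO CL316243 mouse 3 the count was 7, the same 4 with Ulk2 (0.39, limma adjusted p = 0.0169), Sqstm1 and Mcoln1 (0.30, limma adjusted p = 0.0481). The share of all genes called in that fit is not given here, so whether the larger count is particular to these genes was not tested. In each of the 3 slides, which held 2 mice of every group, the difference was above 0 for Atg14 (0.28 to 1.64), Tfe3 (0.40 to 1.31) and Gabarapl1 (0.40 to 0.70) and below 0 for Bnip3l (-0.49 to -0.31). These are the arrays on which the genes were called, so the slides are not separate evidence. Some members not called also kept a single sign, such as Ulk1 (0.51 to 1.21) and Bnip3 (-0.53 to -0.29). The second Atg13 probe also passed, at 1.13 (limma adjusted p = 0.0172 over all kept probes), where the probe used gave 0.33. The other 34 differences, on the probes used, ran from -0.41 to 0.84 and did not pass, which does not show that the genotypes responded alike.

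Under vehicle, none of the 38 genes differed between LKO and LWT by limma (0 at an adjusted p under 0.05, 1 at an unadjusted p under 0.05), where 1.18% of all genes were called. The livers of the genotypes overlapped for all 38 and failed to for 1.8% of all genes. The differences ran from -0.35 for Ulk1 to 0.22 for Ctsl. After CL316243, 9 genes differed, 8 higher and 1 lower in LKO, where 15.9% of all genes did, 7.74% higher and 8.17% lower. Higher in LKO were Atg14 by 0.70 (limma adjusted p = 0.000625), Gabarapl1 by 0.67 (limma adjusted p = 3.833e-05), Tfe3 by 0.65 (limma adjusted p = 0.00194), Sqstm1 by 0.62 (limma adjusted p = 0.00142), Ctsl by 0.55, Atg13 by 0.39, Ulk2 by 0.32 (limma adjusted p = 0.00629) and Mcoln1 by 0.30 (limma adjusted p = 0.00193). Bnip3l was lower in LKO, with a difference of -0.34 (limma adjusted p = 0.00116). For Gabarapl1, Sqstm1, Mcoln1 and Bnip3l the 6 livers of one genotype did not overlap those of the other, where 6.57% of all genes did not.

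These calls differ in how many mice they rest on. The Ctsl difference (limma adjusted p = 0.0254) was lost in 6 of 12 fits that left out 1 mouse, LWT 2, 4, 5 or 6 or LKO 3 or 5 (limma adjusted p up to 0.0655), and that of Atg13 (limma adjusted p = 0.0443) in 7 of 12, LWT 2, 4, 5 or 6 or LKO 2, 3 or 5 (limma adjusted p up to 0.109). The second Gabarapl1 probe differed by 0.54 (limma adjusted p = 0.00282 over all kept probes) and that of Bnip3l by -0.35, while that of Mcoln1 differed by -0.01. That of Atg13 differed by 0.91 (limma adjusted p = 0.00242 over all kept probes), and the second probe of Ctsa, which was not called on the probe used, by 0.97 (limma adjusted p = 0.00201). The probes of Atg14 and Tfe3 were the single kept ones. This comparison and the CL316243 effects share arrays, so they are not separate lines of evidence.

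Beyond the 38, 147 further autophagy and lysosome genes from 5 lists were tested. In LWT 41 rose and 27 fell, and in LKO 59 rose and 28 fell, with medians of 0.04 and 0.12. Of all genes tested, 18.9% rose and 19.4% fell in LWT and 20.9% and 19.4% in LKO, given as a reference for the counts of each list below. The lists were chosen with earlier results of these data known, so a count above these shares is no test of a list. The list of other lysosomal membrane and trafficking proteins, which includes subunits of the proton pump, had 12 of 30 higher and 2 lower in LWT and 17 higher and 3 lower in LKO, with medians of 0.17 and 0.27. Among them Cd63, a tetraspanin of late endosomes, rose by 0.94 and 0.95 and Atp6v0e, a proton pump subunit, by 0.54 and 0.73 in LWT and LKO, while Sort1, a sorting receptor, fell by 1.01 and 0.83 and Gnptab, which makes the mannose 6-phosphate tag of lysosomal enzymes, by 0.43 and 0.42. The Atp6v0e rise in LWT was not called on the mean of its probes (limma adjusted p = 0.456).

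The 39 other lysosomal hydrolases were split, with 8 higher and 10 lower in LWT and 10 higher and 9 lower in LKO. Arsa, a sulfatase, rose by 1.34 and 1.40, Idua, an iduronidase, rose by 0.62 in LWT (0.40 in LKO, not called), and Pla2g15, a lysosomal phospholipase, fell by 0.79 and 1.11 and Glb1, a galactosidase, by 0.62 and 0.54. Neu1, the sialidase, fell by 0.44 in LWT and rose by 0.42 in LKO, and Manba, a mannosidase, did the reverse (0.38 and -0.41).

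Of 30 other core and maturation genes, 7 rose and 5 fell in LWT and 13 rose and 7 fell in LKO. Atg9b, a relative of Atg9a, had the largest changes of these lists. It ran in LWT from -3.90 to -2.58 (median -3.55) under vehicle and from -2.45 to 1.19 (median 0.66) after CL316243, and in LKO from -4.72 to -3.28 (median -3.96) and from -1.47 to 0.01 (median -0.42). Treated livers lay above all vehicle livers of their genotype. The rises were 3.63 (limma adjusted p = 2.3e-06) and 3.31 (limma adjusted p = 9.3e-06). Nrbf2, a partner of the PI3 kinase complex, rose by 0.72 and 0.41. Lower in LWT were Atg4c, an LC3 protease (-0.56, not called without CL316243 mouse 1 or 3), and 1700021K19Rik (-0.54). In LKO 1700021K19Rik was called lower too (-0.42, limma adjusted p = 0.0209), and Atg4c changed by -0.09 and was not called.

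The 16 other selective autophagy receptors had 6 higher and 2 lower in LWT and 5 higher and 2 lower in LKO. Fam134b, a receptor for the endoplasmic reticulum, rose by 1.12 in LWT and 2.62 in LKO, the first call being lost without vehicle mouse 1, 4 or 6 or CL316243 mouse 1 or 5 (limma adjusted p up to 0.0816). Bcl2l13, a mitophagy receptor, rose by 1.06 in LWT and 0.24 in LKO. Ccpg1 and Tex264, both receptors for the endoplasmic reticulum, fell in LWT by 0.28 and 0.25 and were not called in LKO.

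Of 32 nutrient-sensing regulators, 8 rose and 8 fell in LWT and 14 rose and 7 fell in LKO. Mtor, the kinase that restrains autophagy when nutrients are plentiful, ran in LWT from -0.70 to -0.32 (median -0.41) under vehicle and from 0.37 to 0.91 (median 0.55) after CL316243, and in LKO from -0.71 to -0.23 (median -0.42) and from -1.12 to -0.46 (median -0.70). Only treated LWT livers were high. It rose by 1.04 in LWT and fell by 0.30 in LKO. Fnip1, which acts with folliculin on the nutrient switch at the lysosome, rose by 0.78 and 1.40, while Foxo3, a transcription factor of autophagy genes, fell by 1.38 and 0.68 and Sesn3, an inhibitor of the Mtor complex, by 1.03 and 0.51.

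**Figure D5:**
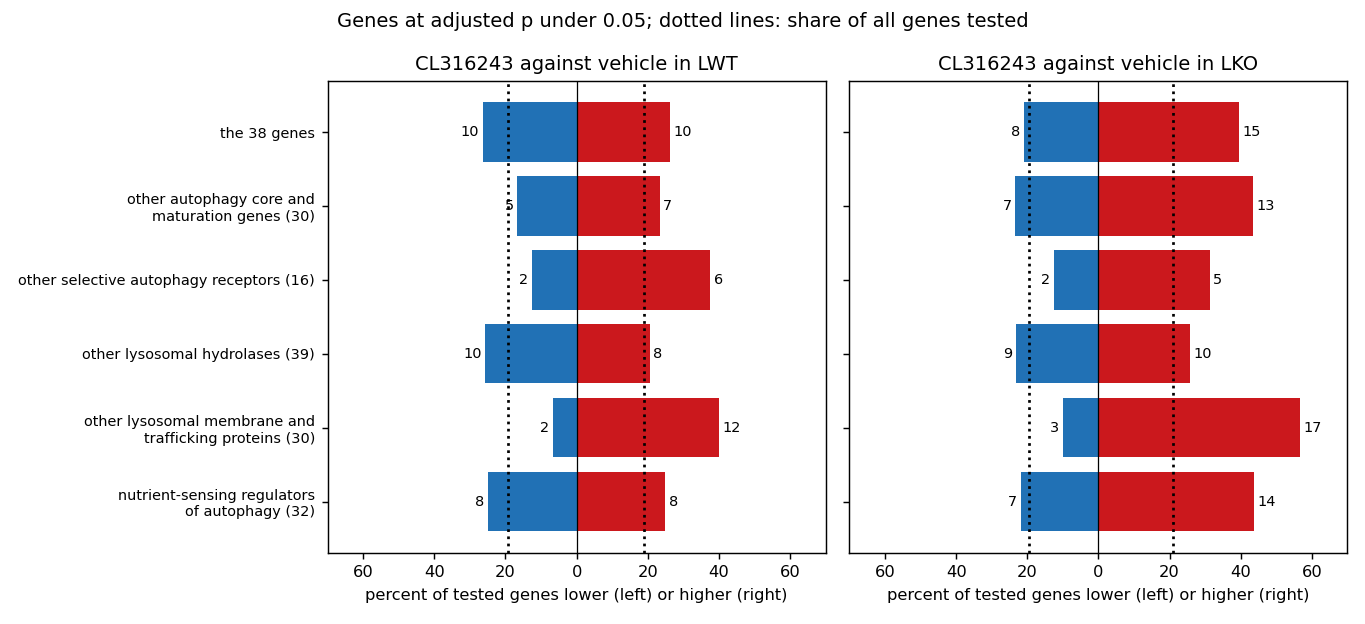
Share of tested genes called lower (left, blue) or higher (right, red) after CL316243 in LWT and LKO livers, for the 38 genes and 5 further lists, with the count beside each bar and the number tested in brackets. Dotted lines mark the share of all 21331 genes (18.9% higher and 19.4% lower in LWT, 20.9% and 19.4% in LKO). The lists were chosen with earlier results of these data known.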

How the data were processed

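Liver RNA of 24 mice was labelled with Cy3 from 200 ng a mouse and hybridised to 1-colour Agilent arrays, 8 a slide on 3 slides, with 2 mice of every group on each slide. Per the file headers, the authors obtained the deposited intensities from the array scans with Agilent Feature Extraction 10.10.1.1. They are linear and background-subtracted, and probe positions are on build mm9. The deposited series table holds log2 values that equal the quantile-normalized median signal to a median of 1.26e-05, tested on the files; it was used as an alternative.

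Outlier-flagged spots were left out, log2 processed signals were scaled by each array's 75th percentile over gene spots, and spots of a probe were averaged. Kept probes exceeded background clearly in 4 or more arrays of any group of 6, with 3 or more values in each (32037 probes). The brightest kept probe stood for its gene (21331 genes). Of 81 member probes 78 were kept, and 24 members had 2 or more. The 4 group means were fitted with limma 3.58.1 (R 4.3.3) on all 24 arrays, with Benjamini-Hochberg adjustment over all genes for each of 5 comparisons; the median standard error was 0.132. The fit was run on simulated data with independent noise and few changed genes, unlike the data here, and its outcome is not given here. The number of arrays limits the precision, and p-values set a difference between groups against the spread between mice.

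The members and lists were chosen with earlier results of these data known. Values were given for members called with a log2 change of at least 0.58 or called for the difference between genotypes, for every member of 3 small role groups whatever its change, and, from each further list, for up to 2 called genes with the largest changes each way in LWT and up to 2 each way for the difference between genotypes; others named were chosen after their values were seen, and 1 gene this rule picks is not reported here. Alternatives were normexp, quantile normalization, the deposited log2 values, no filter, a 6-of-6 filter, the mean of kept probes, slide, slide and row, or replicate number as terms, the compared groups alone, a 1.5-fold minimum and each mouse left out. The main fit did not pair mice by replicate number. Over 36 same-numbered pairs the correlation of deviations ran from -0.183 to 0.421, and 9 exceeded 0.1. The highest, 0.397 and 0.421, were of mice 3 and 4 between the CL316243 groups of the 2 genotypes. Values for differently numbered pairs are not given here, so whether the numbers mark pairs is not settled. All 38 symbols matched RefSeq names. Protein sequences were not used here.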

Additional observations from a re-analysis of the deposited data

Results flagged for a closer look

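Of the 38 genes, 4 passed the test of the difference between genotypes in the CL316243 effect (LKO minus LWT): Atg14 at 0.88, Tfe3 at 0.74, Gabarapl1 at 0.58 and Bnip3l at -0.40. Of all genes tested, 5.41% passed, 2.17% with a higher effect in LKO and 3.24% with a lower one. In the further lists 15 of 147 passed with a higher effect in LKO and 6 with a lower one, and these lists were chosen with earlier results of these data known. Up to 2 genes a list in each direction are given of those that passed this test in the further lists: Fnip2 (1.73), Plekhm1 (0.93), Neu1 (0.86), Tsc1 (0.81), Smpd1 (0.60), Vps18 (0.47) and Cln3 (0.43); and in the other direction Mtor (-1.34), Optn (-0.83), Bcl2l13 (-0.82), Manba (-0.78) and Stx17 (-0.54). Others passed too, among them Flcn (0.75), Rragd (0.72), Foxo3 (0.70) and Phb2 (-0.80). Fnip2, a partner of folliculin, changed by -0.78 in LWT and 0.95 in LKO, and Tsc1, an inhibitor of the Mtor pathway, by -0.47 and 0.34. Optn, a receptor for mitophagy, changed by 0.53 and -0.30, and Stx17, the syntaxin of the autophagosome, by 0.15 and -0.39. Of these 12, the Plekhm1 difference was lost in 19 of 24 fits that left out 1 mouse, and those of Plekhm1 and Cln3 were not called on the mean of their probes (limma adjusted p up to 0.630).

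In 15 of 152 sets of 6 livers (38 genes in 4 groups), 1 liver stood apart from the other 5 by more than Dixon's 95% limit, where chance gives about 1 in 20. Mouse 3 of the LKO CL316243 group accounted for 5: it was highest for Map1lc3b (6.35, next 5.64), Tfe3 (4.71, next 3.82), Atg13 (5.24, next 4.69) and Atg12 (3.89, next 3.42) and lowest for Mitf (-0.70, next -0.17). In the same group mouse 1 was highest for Atg10 (-1.40) and mouse 2 lowest for Lamp2 (4.34). In LWT after CL316243, mouse 2 was lowest for Atg12 (3.25) and Atg4b (1.02). In LWT under vehicle, mouse 2 was lowest for Ulk1 (4.15), Atg2a (2.81) and Wipi2 (0.77), mouse 3 lowest for Atg13 (3.70), and mouse 6 lowest for Atg4a (-0.19) and highest for Ctsa (6.17). No liver of the LKO vehicle group was among them.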

How the results depend on the processing

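Of 56 calls of the 38 genes, 45 held in all fits that left out 1 mouse, 39 under the other alternatives and 38 under both. The 1.5-fold minimum is not among the alternatives of this count, and far fewer calls met it. The counts with 1 mouse left out ran from 17 to 21 (CL316243 in LWT), 21 to 25 (CL316243 in LKO), 4 to 7 (difference between effects), 0 to 0 (genotype under vehicle) and 7 to 10 (genotype after CL316243). Shares of all genes called in those fits are not given here. With a 1.5-fold minimum as well, 3 genes remained for CL316243 in LWT and 7 for CL316243 in LKO. For the difference between effects 3 remained, and for genotype after CL316243 4. With no filter on dim probes, 2 genes (Atg14 and Gabarapl1) passed for the difference between effects, more genes then being tested. That alternative moved the median of all genes to 0.111 in LWT and 0.101 in LKO. On the mean of all kept probes 3 changes reversed: Atg4b in LWT to 0.037 (limma adjusted p = 0.778), Atg16l1 in LWT to -0.051 (limma adjusted p = 0.562) and Nbr1 in LKO to 0.33 (limma adjusted p = 0.00899), since their probes disagree. With normexp, quantile normalization or the deposited log2 values the Sqstm1 difference between effects passed; the cause was not tested. With a replicate block, 19, 23, 4, 0 and 9 genes were called in the 5 comparisons. On the probe used, all 38 genes were well above background on every array, which does not hold for all other kept probes. The small changes of single-probe genes have no second probe to set them against.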
